A study of Homo sapiens with 27 samples.

Results

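The subject here is how far the effect of PP242 on hypoxic neuroblastoma cells differed between 48 h and 24 h of treatment. For each gene the effect at 24 h (PP242 minus DMSO) was subtracted from the effect at 48 h (PP242 minus DMSO) on the log2 scale. A positive difference therefore means that PP242 cells stood higher relative to their DMSO cells at 48 h than at 24 h. The rule used sample labels and no measured value, and it took 15 of the 27 arrays of the series: 4 arrays of PP242 cells at 48 h, 4 of DMSO cells at 48 h, 4 of PP242 cells at 24 h and 3 of DMSO cells at 24 h. All 15 arrays came from SK-N-BE(2)c, a human neuroblastoma line with amplified MYCN, kept in hypoxia for the stated time with either PP242 or its solvent DMSO. The oxygen level and the dose of PP242 were not given in the sources used here. Each array measured total RNA of 1 sample on Illumina bead probes, and the 12 other arrays are the untreated 0 h cells and the 72 h cells.

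PP242 blocks the ATP site of mTOR, the kinase that forms both mTORC1 and mTORC2. mTORC1 promotes translation, lipid and nucleotide synthesis and the output of the transcription factors HIF-1, ATF4 and SREBP, and mTORC2 activates AKT. E2F factors drive the genes of DNA replication, and the genes of mitosis are switched on later in the cycle through CCAAT and CHR elements. Both groups fall when cells leave the cycle.

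The labelled cell type was borne out by its markers: 9 of 11 sympathoadrenal markers were among the genes tested, and all 9 were above background on all 15 arrays. MYCN lay between 13.87 and 14.46 on the log2 scale on these arrays. The median intensity per array ran between 98 and 113, and each array had 20729 to 22976 probes above background. Nothing in the labels says that the numbered samples of a group came from separate cultures. The p-values measure the spread within groups, pooled over all 27 arrays, and that spread may be technical. The main fit did not use the sample numbers. The number of arrays limits the precision, and DMSO cells at 24 h have no array numbered 4.

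Among 12631 genes, 339 had a positive difference (2.68%) and 301 a negative one (2.38%) at an adjusted p under 0.05 in limma. Of these, 187 positive (1.48%) and 118 negative (0.934%) differences were at least 2-fold, 305 in all (2.41%). The genes of DNA replication and mitosis led the positive side, with FEN1 at 2.52 and BIRC5 at 1.97 on the log2 scale. The stress transcription factor DDIT3 had the most negative value of all genes tested, at -3.15. With each array scaled by its median alone, the same comparison gave 294 positive and 165 negative genes, so 64.1% of the calls were positive, against 53% in the quantile-normalized values. The sample numbers pair the arrays, and blocking by that number gave 725 positive and 779 negative genes of the 12631. Counts with the block, given below for lists and families, are to be read against these totals. The background shares beside the other counts come from the fit without the block. The total of 640 genes (5.07%) fell to 408 when PP242 48 h array 2 was left out, to 399 for DMSO 48 h array 3, to 406 for PP242 24 h array 3, to 345 for DMSO 24 h array 1 and to 340 for DMSO 24 h array 2.

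The 6 promoters printed here are those of the called list members with the largest differences whose first listed promoter holds the letters: UHRF1, E2F2 and PCNA of DNA replication, CENPA and TOP2A of mitosis, and BHLHE40 of the hypoxia response. Genes on the chromosome that carries PBK and NDRG1 were left out of this choice. Each run is the 250 bases before the start site in RefSeq on GRCh38.p14, read 5′ to 3′ on the gene's strand. Capitals mark the E2F letters (TTTCCCGC, TTTCGCGC, TTTGCCGC or TTTGGCGC) in the first 3, the CHR letters of cell cycle promoters (TTTGAA or TTTAAA) in the next 2, and the hypoxia response core (ACGTG) in the last, each on either strand. FEN1, MCM10, TK1, RRM2 and CHAF1A, also among the replication genes described below, held no E2F letters in this window.
UHRF1 (chr19:4909251-4909500, plus strand): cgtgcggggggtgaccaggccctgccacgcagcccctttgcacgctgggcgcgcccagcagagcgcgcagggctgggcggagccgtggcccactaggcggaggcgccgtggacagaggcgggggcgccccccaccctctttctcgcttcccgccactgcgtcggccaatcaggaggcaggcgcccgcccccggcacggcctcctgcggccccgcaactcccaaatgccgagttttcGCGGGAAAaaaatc
E2F2 (chr1:23531234-23531483, minus strand): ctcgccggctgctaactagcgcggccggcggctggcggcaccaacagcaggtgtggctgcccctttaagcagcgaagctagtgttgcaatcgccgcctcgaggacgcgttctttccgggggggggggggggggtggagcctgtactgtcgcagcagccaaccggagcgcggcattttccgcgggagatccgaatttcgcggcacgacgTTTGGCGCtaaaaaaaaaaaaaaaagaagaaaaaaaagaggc
PCNA (chr20:5126623-5126872, minus strand): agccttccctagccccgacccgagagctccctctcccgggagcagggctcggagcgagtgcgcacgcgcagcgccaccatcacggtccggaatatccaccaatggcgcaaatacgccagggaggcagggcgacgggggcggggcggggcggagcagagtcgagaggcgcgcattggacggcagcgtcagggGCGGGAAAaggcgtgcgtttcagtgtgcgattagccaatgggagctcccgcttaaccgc
CENPA (chr2:26785806-26786055, plus strand): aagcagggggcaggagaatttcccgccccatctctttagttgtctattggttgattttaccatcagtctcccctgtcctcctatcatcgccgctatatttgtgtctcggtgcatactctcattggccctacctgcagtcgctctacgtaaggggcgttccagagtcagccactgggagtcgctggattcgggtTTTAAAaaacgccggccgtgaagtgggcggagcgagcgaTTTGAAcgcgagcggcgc
TOP2A (chr17:40417897-40418146, minus strand): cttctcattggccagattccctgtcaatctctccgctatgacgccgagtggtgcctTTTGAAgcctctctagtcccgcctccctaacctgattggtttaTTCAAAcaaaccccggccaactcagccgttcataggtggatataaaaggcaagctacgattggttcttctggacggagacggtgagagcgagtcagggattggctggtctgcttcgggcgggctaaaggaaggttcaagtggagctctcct
BHLHE40 (chr3:4979187-4979436, plus strand): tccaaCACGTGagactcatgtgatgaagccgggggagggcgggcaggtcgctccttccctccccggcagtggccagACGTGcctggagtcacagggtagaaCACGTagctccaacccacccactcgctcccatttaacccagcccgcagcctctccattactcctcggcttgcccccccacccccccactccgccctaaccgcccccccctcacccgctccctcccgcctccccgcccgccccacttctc

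Shares are per gene, with a gene counted when any of its listed promoters held the letters. E2F letters stood in 14 of 34 searched genes of the replication list (41.2%) and in 5.4% of the 9944 tested genes with a promoter. CHR letters stood in 22 of 32 genes of the mitosis list (68.8%) and in 21.0% of tested genes. The ACGTG core stood in 15 of 21 genes of the hypoxia list (71.4%) and in 27.8% of tested genes. Per promoter, over all 35116 promoters of the table, the shares were 2.79% for E2F letters, 21.9% for CHR letters and 18.5% for ACGTG. E2F letters stood in 12.3% of searched genes with a positive difference and in 5.22% of those with a negative one. For CHR letters these shares were 26.0% and 21.3%, against 21.0% of tested genes. For the ACGTG core they were 26.3% and 28.9%, near the 27.8% of tested genes. A run of CCAAT, the site of NF-Y, stood in 59.6% of positive, 43.8% of negative and 41.7% of all tested genes. A match is a description of letters in this window.

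The replication list, 38 of whose 42 members were tested, held the most calls. Of the 38, 28 had a positive difference (background 2.68%, the share of all tested genes with the same call), none had a negative one, and all 38 estimates were above 0. Their median difference was 1.38, against -0.01 over all genes tested. At 24 h, 35 of the 38 were lower in PP242 cells (background 11.3%), with a median effect of -1.56. At 48 h, 1 was lower (background 5.79%), with a median effect of -0.25. In PP242 cells 8 of the 38 rose between 24 h and 48 h (background 0.823%), and in DMSO cells 12 fell (background 1.74%). The 2 effects and the 2 changes with time are made of the same arrays as the difference and describe it. In bulk RNA, fewer cells in S phase and less RNA of a gene per cell cannot be told apart.

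FEN1, the flap endonuclease that trims Okazaki fragments, had the highest difference. Values of single arrays are normalized log2 signals in the order of the sample numbers, and they compare samples of the same gene only. The 48 h FEN1 values were 8.32, 9.64, 9.63 and 9.40 in PP242 cells, against 8.87, 9.55, 8.95 and 9.93 in DMSO cells. The 24 h FEN1 values were 7.97, 9.13, 7.74 and 7.66 in PP242 cells, against 10.65, 10.78 and 10.75 in DMSO cells. At 24 h every PP242 array lay below every DMSO array, and at 48 h the groups overlapped, with PP242 array 1 lowest of its group. The effect was -0.08 at 48 h and -2.60 at 24 h, so the difference was 2.52 (SE 0.40, adjusted p = 0.000584, limma), with a second probe at 1.87. Both arms moved: FEN1 rose by 1.12 in PP242 cells (adjusted p = 0.0384) and fell by 1.40 in DMSO cells (adjusted p = 0.00677) between 24 h and 48 h.

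MCM10, which helps to activate the replicative helicase, had the same shape. The 48 h MCM10 values were 7.82, 8.90, 8.54 and 8.51 in PP242 cells, against 8.35, 9.05, 8.50 and 9.10 in DMSO cells. The 24 h MCM10 values were 7.002, 8.13, 6.29 and 6.91 in PP242 cells, against 9.72, 9.71 and 9.77 in DMSO cells. The 24 h groups were apart and the 48 h groups overlapped. Its difference was 2.35 (SE 0.39, adjusted p = 0.000649). E2F2, a transcription factor that drives the replication genes, is the gene whose promoter is shown above with its E2F letters starting 42 bases before the start site. The 48 h E2F2 values were 6.73, 7.97, 8.21 and 7.60 in PP242 cells, against 7.35, 8.12, 7.92 and 8.81 in DMSO cells. The 24 h E2F2 values were 5.88, 7.17, 5.72 and 5.96 in PP242 cells, against 8.95, 9.05 and 8.96 in DMSO cells. PP242 24 h array 2 stood above the 3 other arrays of its group, and DMSO 48 h array 4 was the highest of the 8 arrays at 48 h. E2F2 differed by 2.39 (SE 0.43, adjusted p = 0.00161).

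UHRF1 carries DNA methylation through replication. The 48 h UHRF1 values were 8.48, 9.91, 9.69 and 8.81 in PP242 cells, against 8.97, 9.40, 9.29 and 10.06 in DMSO cells. The 24 h UHRF1 values were 8.25, 9.16, 7.08 and 7.30 in PP242 cells, against 10.72, 10.46 and 10.52 in DMSO cells. PP242 cells were all below DMSO cells at 24 h and overlapped them at 48 h, with a difference of 2.41 (SE 0.52, adjusted p = 0.00663); a second UHRF1 probe gave 0.60. PCNA is the sliding clamp of the replication fork. The 48 h PCNA values were 9.72, 10.70, 10.09 and 9.68 in PP242 cells, against 10.27, 10.65, 9.76 and 10.63 in DMSO cells. The 24 h PCNA values were 9.29, 10.15, 8.03 and 7.98 in PP242 cells, against 11.57, 11.51 and 11.35 in DMSO cells. Its 24 h groups were apart, and the spread within PP242 24 h cells was wide, with arrays 1 and 2 above arrays 3 and 4. The PCNA difference was 2.34 (SE 0.57, adjusted p = 0.015), its second probe gave 0.88, and the mean of both probes gave 1.61 with an adjusted p of 0.0857.

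CDC25A, the phosphatase that activates CDK2, differed by 2.20 (SE 0.42, adjusted p = 0.00264), with a second probe at 0.92. TK1, the thymidine kinase of the salvage pathway, differed by 2.11 (SE 0.40, adjusted p = 0.00264), and CHAF1A, a subunit of the histone chaperone CAF-1, by 1.62 (SE 0.26, adjusted p = 0.00063). The CHAF1A probe was above background on 2 of 4 PP242 arrays at 24 h and on all other arrays. UBE2T, a ubiquitin-conjugating enzyme of the Fanconi anemia pathway outside the list, differed by 2.29 (SE 0.45, adjusted p = 0.00353). All 4 genes had PP242 and DMSO groups apart at 24 h and overlapping at 48 h. Among the MCM helicase subunits the difference was 1.37 for MCM4, 1.63 for MCM6, 1.31 for MCM5, 1.02 for MCM3, 1.02 for MCM2 and 0.66 for MCM7, each past the threshold.

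RRM2 is the small subunit of ribonucleotide reductase. The 48 h RRM2 values were 6.34, 7.63, 6.89 and 5.89 in PP242 cells, against 6.45, 6.88, 6.49 and 7.002 in DMSO cells. The 24 h RRM2 values were 5.86, 6.57, 5.30 and 5.22 in PP242 cells, against 7.90, 8.16 and 7.76 in DMSO cells. PP242 cells were below DMSO cells at 24 h, when 2 of the 4 PP242 arrays were above background, and the groups overlapped at 48 h. The RRM2 difference of 2.19 (SE 0.61, adjusted p = 0.0317) passed in 16 of 26 alternatives. It lost its call without PP242 48 h array 2 or 3, DMSO 48 h array 1 or 3, PP242 24 h array 3 or 4 and DMSO 24 h array 1 or 2, without background correction and in the authors' value table, with adjusted p-values up to 0.0915.

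All 40 members of the mitosis list were tested. The difference was positive for 17 (background 2.68%) and negative for none, with 39 estimates above 0 and a median of 1.09. With samples blocked by number 27 passed. At 48 h, 26 of the 40 were lower in PP242 cells (background 5.79%), with a median effect of -0.87, where the replication list had 1 of 38 lower. At 24 h, 39 of the 40 were lower (background 11.3%), with a median effect of -1.98. In PP242 cells 17 rose between 24 h and 48 h (background 0.823%), with a median change of 0.84 over the list, and in DMSO cells none of the 40 passed in either direction, with a median change of -0.25. Without PP242 48 h array 1, the lowest of its group for BIRC5, CENPA and MELK, 28 members had a positive difference.

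BIRC5, or survivin, is the subunit of the chromosomal passenger complex that holds it at centromeres. The 48 h BIRC5 values were 6.97, 8.31, 8.30 and 7.98 in PP242 cells, against 8.71, 8.84, 8.54 and 8.95 in DMSO cells. The 24 h BIRC5 values were 6.52, 7.05, 6.25 and 6.61 in PP242 cells, against 9.37, 9.39 and 9.56 in DMSO cells. PP242 cells were below DMSO cells at both times, with a narrower gap at 48 h. The effect was -0.87 at 48 h and -2.83 at 24 h, and the difference was 1.97 (SE 0.33, adjusted p = 0.000756), with a second probe at 1.34. BIRC5 rose by 1.28 in PP242 cells (adjusted p = 0.0052).

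CENPA is the histone H3 variant that marks centromeres, and its promoter above holds 2 CHR matches. The 48 h CENPA values were 6.82, 8.26, 7.77 and 7.21 in PP242 cells, against 8.45, 8.51, 8.13 and 8.43 in DMSO cells. The 24 h CENPA values were 6.19, 6.70, 5.92 and 5.63 in PP242 cells, against 9.10, 9.19 and 8.68 in DMSO cells. At 48 h PP242 array 2 overlapped the DMSO arrays and the 3 other PP242 arrays lay below them, and every PP242 array at 48 h was above every PP242 array at 24 h. CENPA differed by 2.02 (SE 0.42, adjusted p = 0.00533), and its second probe gave 1.13. MELK, a kinase high in dividing cells, had effects of -0.82 at 48 h and -3.08 at 24 h and differed by 2.26 (SE 0.48, adjusted p = 0.006). PBK, a mitotic kinase, differed by 1.97, TOP2A, the topoisomerase that untangles sister chromatids, by 1.44, and AURKA, a spindle pole kinase, by 1.18, each past the threshold. CDK1, the kinase that starts mitosis, had an estimate of 2.08 that did not pass (adjusted p = 0.124).

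**Figure D1:**
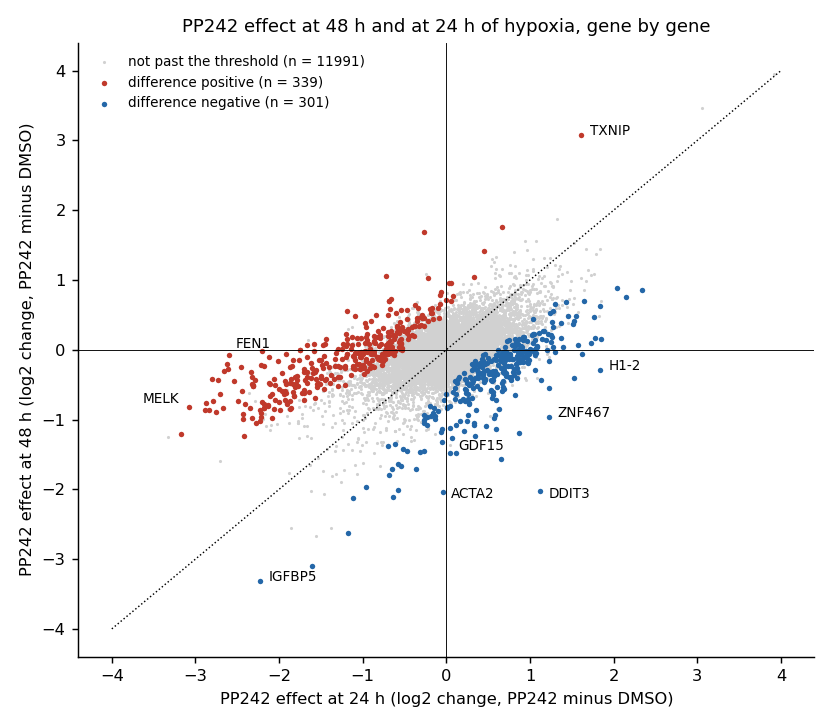
Each point is 1 of 12631 genes, with the PP242 effect at 24 h on the horizontal axis and at 48 h on the vertical axis, both in log2 units of PP242 minus DMSO, and the dotted line marks equal effects. The 339 genes with a positive difference lie above the line, mostly left of 0, and the 301 genes with a negative difference lie below it, with DDIT3 positive at 24 h and negative at 48 h.

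Across the 339 genes with a positive difference, 76 were called against DMSO at 48 h (10.2% of all genes were) and 304 at 24 h (21.7% of all genes were). The positive and negative genes were chosen by the difference between these effects, a choice that favours such calls. The effect was negative at both times for 204 of them, negative at 24 h and positive at 48 h for 127, and positive at both times for 8. Their median effect was -0.10 at 48 h and -1.09 at 24 h. Across the 301 genes with a negative difference, 119 were called at 48 h and 218 at 24 h. Of these, 202 had a negative effect at 48 h and a positive one at 24 h, 63 were positive at both times and 36 negative at both. The median effect of the 301 was -0.29 at 48 h and 0.64 at 24 h, and 24 genes were called at both times with opposite signs.

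The difference is also the change of PP242 cells between 24 h and 48 h minus the change of DMSO cells. Over all genes, PP242 cells changed for 144 (1.14%) and DMSO cells for 513 (4.06%). Of the 339 positive genes, 76 rose in PP242 cells (background 0.823%) and 130 fell in DMSO cells (background 1.74%). Their median changes were 0.48 in PP242 cells and -0.57 in DMSO cells. Of the 301 negative genes, 28 fell in PP242 cells (background 0.317%) and 170 rose in DMSO cells (background 2.32%). Their median changes were -0.31 in PP242 cells and 0.56 in DMSO cells. The arms had opposite signs of change for 336 of the 339 and 286 of the 301. The choice of large differences favours this share and the counts above.

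**Figure D2:**
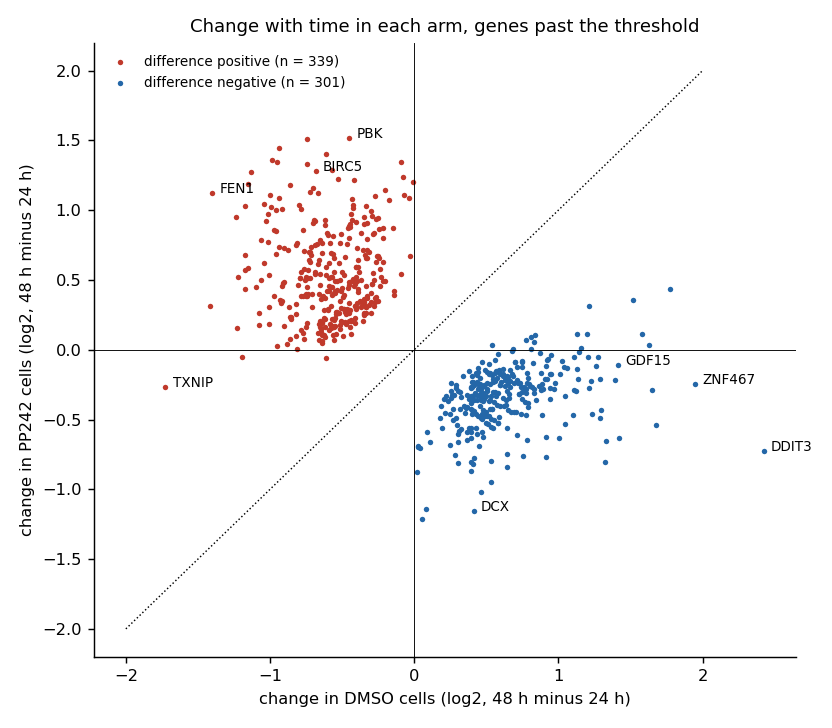
The 640 genes with a difference past the threshold are placed by their change between 24 h and 48 h in DMSO cells (horizontal axis) and in PP242 cells (vertical axis), in log2 units, and the dotted line marks equal change. Most positive differences lie in the upper left, where PP242 cells went up and DMSO cells down. TXNIP, also positive, had a negative change in both arms, and TXNIP and DDIT3 stand apart through their change in DMSO cells.

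DDIT3 encodes CHOP, a transcription factor of the integrated stress response downstream of ATF4. The 48 h DDIT3 values were 7.77, 7.60, 6.97 and 7.37 in PP242 cells, against 10.12, 9.50, 9.79 and 8.41 in DMSO cells. The 24 h DDIT3 values were 8.25, 7.57, 8.55 and 8.25 in PP242 cells, against 6.86, 6.96 and 7.27 in DMSO cells. PP242 cells were all below DMSO cells at 48 h and all above them at 24 h, and DMSO 48 h array 4 was the lowest of its group. The effect was -2.02 at 48 h (adjusted p = 1.88e-06) and 1.12 at 24 h (adjusted p = 0.00249), for a difference of -3.15 (SE 0.36, adjusted p = 6.4e-06). DDIT3 rose by 2.42 in DMSO cells (adjusted p = 2.99e-06), and its change of -0.72 in PP242 cells did not pass (adjusted p = 0.17).

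ATF5 is a related stress-induced transcription factor. The 48 h ATF5 values were 7.79, 7.56, 7.34 and 8.05 in PP242 cells, against 9.44, 8.97, 9.36 and 7.73 in DMSO cells. The 24 h ATF5 values were 8.56, 7.63, 8.79 and 8.29 in PP242 cells, against 7.38, 7.26 and 7.71 in DMSO cells. The groups overlapped at both times, at 48 h through DMSO array 4 alone. ATF5 differed by -2.06 (SE 0.42, adjusted p = 0.00422). TRIB3, a pseudokinase induced by CHOP, differed by -1.27 (adjusted p = 0.0239), with an effect of -1.32 at 48 h and -0.05 at 24 h. Other genes of the ATF4 list went the other way: the difference was 1.38 for ATF3, a stress transcription factor, 0.85 for the leucine transporter SLC7A5, 0.78 for the methionyl-tRNA synthetase MARS1 and 0.98 for the glutathione-degrading enzyme CHAC1. In all, 4 of 29 tested members were positive and 3 negative (background 2.68% and 2.38%), 6 and 5 with samples blocked by number, with a median of -0.01, against -0.01 over all genes. ATF3 was apart from DMSO cells at 24 h, where its effect was -0.66, and overlapped at 48 h, where it was 0.72.

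ZNF467 encodes a zinc finger protein. The 48 h ZNF467 values were 6.91, 7.34, 7.04 and 7.37 in PP242 cells, against 8.28, 8.46, 8.05 and 7.74 in DMSO cells. The 24 h ZNF467 values were 7.18, 7.59, 7.35 and 7.52 in PP242 cells, against 6.05, 6.31 and 6.20 in DMSO cells. PP242 cells lay below DMSO cells at 48 h and above them at 24 h. ZNF467 had a change of -0.24 in PP242 cells that did not pass (adjusted p = 0.614) and rose by 1.95 in DMSO cells (adjusted p = 2.7e-08), which left a difference of -2.19 (SE 0.22, adjusted p = 1.86e-06).

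H1-2 is a linker histone. The 48 h H1-2 values were 9.85, 9.50, 9.21 and 9.31 in PP242 cells, against 9.86, 9.86, 9.87 and 9.42 in DMSO cells. The 24 h H1-2 values were 10.25, 9.94, 10.53 and 10.36 in PP242 cells, against 8.42, 8.30 and 8.58 in DMSO cells. At 24 h PP242 cells were all above DMSO cells, and at 48 h they overlapped through DMSO array 4, which lay below PP242 arrays 1 and 2. H1-2 fell by 0.80 in PP242 cells (adjusted p = 0.0117) and rose by 1.32 in DMSO cells (adjusted p = 5.08e-05), so the difference was -2.12 (SE 0.24, adjusted p = 5.98e-06). CREBRF, a regulator of CREB3, differed by -1.93 (SE 0.30, adjusted p = 0.000516), and both of its probes gave similar values. EPB41L4A-AS1, a long noncoding RNA, differed by -1.70 (SE 0.28, adjusted p = 0.00063); in both genes PP242 cells were above DMSO cells at 24 h and overlapped them at 48 h.

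KCNIP4, NRG3 and HNRNPDL were also among the 10 genes named for the most negative differences, as was ACTA2, described below. KCNIP4, a subunit that modulates neuronal potassium channels, differed by -2.22 (SE 0.26, adjusted p = 6.7e-06), and its effect of -1.56 at 48 h and 0.66 at 24 h separated the groups in opposite directions. Its other 2 probes gave -1.01 and -0.18. NRG3, a neuregulin that binds the receptor ERBB4, differed by -1.73 (SE 0.25, adjusted p = 0.000312), with groups apart at 48 h and overlapping at 24 h. HNRNPDL, an RNA-binding protein, differed by -1.78 (SE 0.19, adjusted p = 3.03e-06), while a second probe of the gene gave -0.06, so its probes disagreed.

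**Figure D3:**
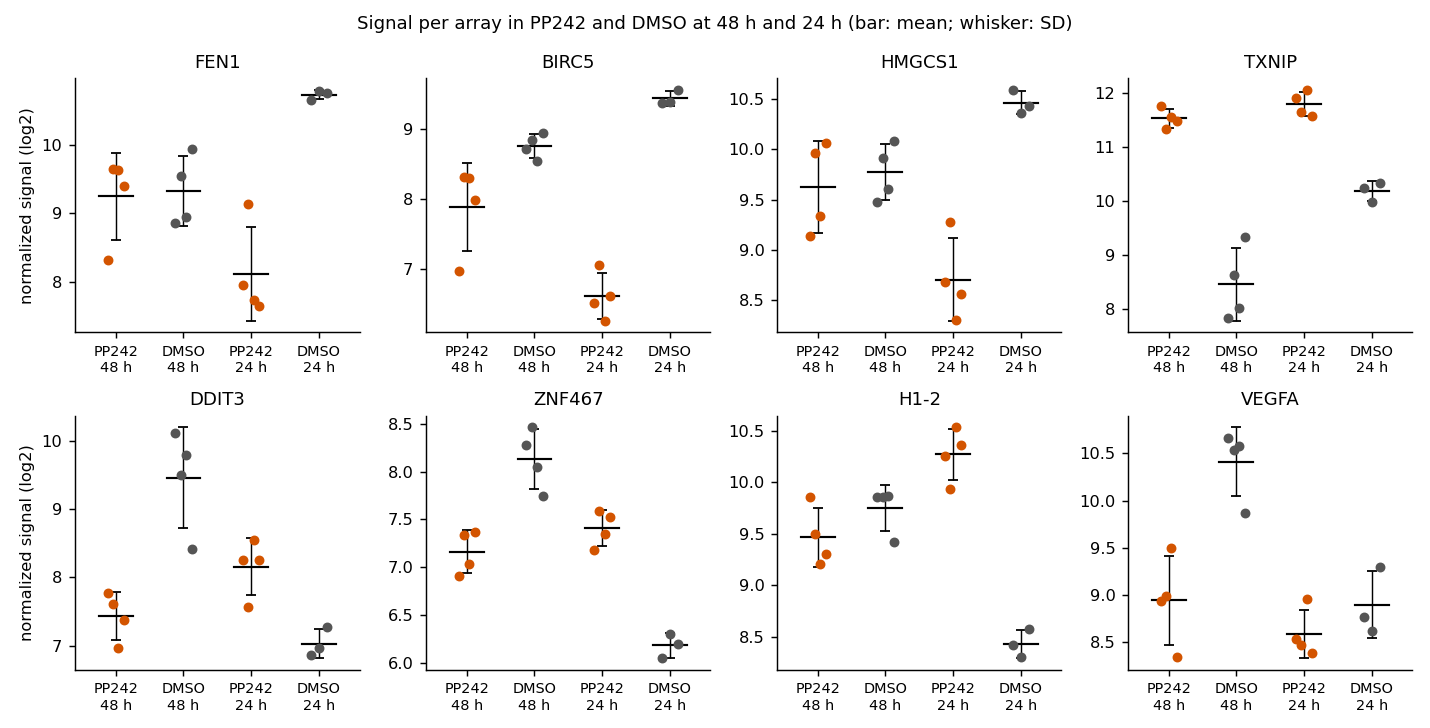
Normalized log2 signal of 8 genes on each of the 15 arrays, in PP242 and DMSO cells at 48 h and then at 24 h, with the mean as a bar and the SD as a whisker (n = 4, and 3 for DMSO at 24 h). FEN1, BIRC5 and HMGCS1 have their lowest group in PP242 cells at 24 h, and DDIT3, ZNF467, VEGFA and H1-2 are higher in DMSO cells at 48 h than at 24 h.

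Of the 34 listed symbols of the hypoxia response outside glycolysis, 25 were tested. COXFA4L2 and NDUFA4L2 were listed separately but name the same gene, which was tested as COXFA4L2. No member had a positive difference (background 2.68%), 5 had a negative one (background 2.38%) and 9 did with samples blocked by number. The median difference was -0.50, from a median effect of -0.94 at 48 h and -0.48 at 24 h. In DMSO cells 10 of the 25 rose between 24 h and 48 h (background 2.32%), with a median change of 0.53, and in PP242 cells none passed in either direction, with a median change of 0.13. The 5 calls fell to 3 when DMSO 48 h array 1 or 3, PP242 24 h array 3 or DMSO 24 h array 1 or 2 was left out, and with arrays scaled by their median alone or fitted without the 0 h and 72 h arrays.

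PLOD1, a lysyl hydroxylase that modifies collagen, had the most negative difference of the list. The 48 h PLOD1 values were 10.33, 10.09, 10.40 and 10.33 in PP242 cells, against 11.74, 11.42, 11.71 and 11.19 in DMSO cells. The 24 h PLOD1 values were 10.97, 10.38, 11.06 and 10.62 in PP242 cells, against 10.62, 9.93 and 10.70 in DMSO cells. PP242 cells were below DMSO cells at 48 h and overlapped them at 24 h, and DMSO cells at 48 h were above DMSO cells at 24 h. PLOD1 differed by -1.57 (SE 0.28, adjusted p = 0.00132). KDM3A, a histone demethylase induced by hypoxia, differed by -1.19 (SE 0.26, adjusted p = 0.00741). BHLHE40, a transcriptional repressor whose promoter above holds 4 matches to the hypoxia core, the first 2 being the strands of a single CACGTG palindrome, differed by -1.10 (adjusted p = 0.00748), with effects of -1.79 at 48 h and -0.69 at 24 h that both passed. NDRG1, a hypoxia-induced growth regulator, differed by -1.34 (adjusted p = 0.0333).

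VEGFA encodes the main growth factor of new vessels. The 48 h VEGFA values were 8.93, 8.99, 9.49 and 8.35 in PP242 cells, against 10.67, 10.53, 10.57 and 9.87 in DMSO cells. The 24 h VEGFA values were 8.53, 8.47, 8.95 and 8.39 in PP242 cells, against 8.77, 8.62 and 9.30 in DMSO cells. At 48 h PP242 cells were all below DMSO cells, and at 24 h the groups overlapped. VEGFA rose by 1.52 in DMSO cells (adjusted p = 0.000284), and its change in PP242 cells was 0.36 (adjusted p = 0.593). The difference was -1.16 (SE 0.31, adjusted p = 0.0269), with a second probe at -1.14. It passed in 18 of 26 alternatives, with adjusted p-values between 0.000103 and 0.103, and lost its call without PP242 48 h array 4, DMSO 48 h array 1 or 3, PP242 24 h array 3 or DMSO 24 h array 1 or 2, with arrays scaled by their median alone and with the 15 arrays fitted alone. Of 13 tested angiogenic factors, VEGFA and EFNA1 were negative (background 2.38%) and none was positive. EFNA1, an ephrin ligand, differed by -1.14 (SE 0.17, adjusted p = 0.000312), with an effect of -0.47 at 48 h and 0.67 at 24 h, and its second probe gave -0.21.

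EPAS1 encodes HIF-2 alpha, a HIF subunit studied in neuroblastoma. The 48 h EPAS1 values were 5.78, 6.97, 5.79 and 6.44 in PP242 cells, against 7.39, 7.56, 7.31 and 7.40 in DMSO cells. The 24 h EPAS1 values were 5.51, 6.28, 5.33 and 5.66 in PP242 cells, against 6.06, 6.60 and 6.26 in DMSO cells. PP242 cells lay below DMSO cells at 48 h and overlapped them at 24 h, yet the difference of -0.55 (SE 0.41) did not pass (adjusted p = 0.535). HIF1A had a difference of 0.28 (SE 0.31, adjusted p = 0.714) and MYCN of 0.16 (SE 0.25, adjusted p = 0.819). DDIT4, or REDD1, a hypoxia-induced inhibitor of mTORC1, was lower in PP242 cells at both times, with effects of -1.73 at 48 h and -1.22 at 24 h, with a difference of -0.51 (SE 0.33, adjusted p = 0.471). MTOR itself had a difference of 0.38 (SE 0.31, adjusted p = 0.589). None of the 13 tested HIF subunits and regulators passed, and with samples blocked by number 1 was positive and 1 negative. CREBBP, a coactivator of HIF, had -0.62 (adjusted p = 0.052, and 0.0267 with the block).

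Of 16 tested genes of cholesterol synthesis, 4 had a positive difference (background 2.68%), none a negative one, and 8 were positive with the block, with a median of 0.56 and 12 of 16 estimates above 0. PP242 cells were lower at 48 h for 1 of the 16 (background 5.79%) and at 24 h for 9 (background 11.3%). HMGCS1 makes HMG-CoA, the substrate of the rate-limiting step. The 48 h HMGCS1 values were 9.14, 9.96, 9.34 and 10.07 in PP242 cells, against 9.48, 9.92, 9.61 and 10.08 in DMSO cells. The 24 h HMGCS1 values were 8.68, 9.27, 8.30 and 8.56 in PP242 cells, against 10.59, 10.37 and 10.43 in DMSO cells. PP242 cells were below DMSO cells at 24 h and spread through the same range at 48 h. HMGCS1 differed by 1.61 (SE 0.32, adjusted p = 0.00365). MSMO1, a sterol demethylase, differed by 1.47 (SE 0.31, adjusted p = 0.00509), and with the mean of its 2 probes the adjusted p was 0.0713. ACAT2, an acetyl-CoA acetyltransferase, differed by 2.05 (adjusted p = 0.0113) and INSIG1, the sterol-regulated anchor of SREBP, by 1.54 (adjusted p = 0.0262).

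Of 14 tested genes of fatty acid synthesis, FASN, the fatty acid synthase, had a positive difference (background 2.68%) of 0.75 (SE 0.20, adjusted p = 0.023), with an effect of 0.46 at 48 h and -0.29 at 24 h. It lost its call without PP242 48 h array 2, DMSO 48 h array 3, PP242 24 h array 4 or DMSO 24 h array 1 or 2, with adjusted p-values up to 0.0634. With samples blocked by number 2 of the 14 were positive and 1 was negative. Of 14 tested genes of the unfolded protein response, 3 had a positive difference (background 2.68%), and 5 were positive and 1 negative with the block, around a median of 0.56. SDF2L1, a chaperone cofactor of the endoplasmic reticulum, differed by 1.43 (SE 0.34, adjusted p = 0.0136), DNAJB11, a cochaperone there, by 0.97 (SE 0.18, adjusted p = 0.00243), and CRELD2, a secreted stress protein, by 1.03 (adjusted p = 0.0286). All 3 had effects between -0.19 and -0.03 at 48 h, none past the threshold, and were lower in PP242 cells at 24 h, SDF2L1 at -1.62.

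TXNIP, a glucose-sensing arrestin and FOXO target, was one of 8 genes whose difference and both effects were positive. The 48 h TXNIP values were 11.75, 11.33, 11.54 and 11.48 in PP242 cells, against 7.83, 8.63, 8.01 and 9.33 in DMSO cells. The 24 h TXNIP values were 11.90, 11.64, 12.05 and 11.57 in PP242 cells, against 10.24, 9.97 and 10.32 in DMSO cells. PP242 cells were above DMSO cells at both times, and the gap widened as TXNIP fell by 1.73 in DMSO cells (adjusted p = 6.15e-05). The effect was 3.07 at 48 h and 1.61 at 24 h, and the difference was 1.46 (SE 0.31, adjusted p = 0.0065). IGFBP5, a secreted binding protein of insulin-like growth factors, widened in the other direction, with effects of -3.31 at 48 h and -2.23 at 24 h and a difference of -1.08 (SE 0.29, adjusted p = 0.0246). IGFBP5 was apart at both times, and its call was lost without DMSO 48 h array 1 or DMSO 24 h array 1 or 2 and with arrays scaled by their median alone, with an adjusted p of up to 0.0815. TXNIP and IGFBP5 were the 2 calls among 22 tested FOXO and receptor feedback genes, 1 positive and 1 negative (background 2.68% and 2.38%). The block gave 2 positive and 3 negative of the 22, against 725 and 779 of all 12631 genes.

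ACTA2, the smooth muscle actin of contractile and mesenchymal cells, had an effect at 48 h and none past the threshold at 24 h. The 48 h ACTA2 values were 5.35, 6.28, 5.48 and 5.67 in PP242 cells, against 8.15, 7.82, 8.07 and 6.85 in DMSO cells. The 24 h ACTA2 values were 6.62, 6.28, 6.18 and 6.32 in PP242 cells, against 6.48, 6.54 and 6.16 in DMSO cells. PP242 cells were all below DMSO cells at 48 h and overlapped them at 24 h, and DMSO 48 h array 4 was the lowest of its group. ACTA2 differed by -1.99 (SE 0.39, adjusted p = 0.00368). TWIST1, a transcription factor of mesenchymal and neural crest cells, differed by -0.73 (SE 0.18, adjusted p = 0.0185) and lost its call without DMSO 48 h array 3 or DMSO 24 h array 1, with adjusted p-values of 0.054 and 0.0605, and with arrays scaled by their median alone (0.139). They were the 2 negative calls among 18 mesenchymal and neural crest genes (background 2.38%), and the block gave 4, where 779 of all 12631 genes were negative with it. PDGFRB, a receptor of pericytes and fibroblasts, differed by -1.38 (SE 0.26, adjusted p = 0.00264). ACTA2 and PDGFRB were also the 2 negative calls (3 with the block, beside 1 positive) among 10 tested (background 2.38%) of 23 markers of Schwann, immune, endothelial, mural and blood cells, of which 3 were above background on all 15 arrays. The leukocyte marker PTPRC and the endothelial marker PECAM1 were not among the genes tested. The summed linear signal of the 10 ran between 596 and 714 in PP242 cells at 48 h, 1336 and 1628 in DMSO cells at 48 h, 652 and 842 in PP242 cells at 24 h and 831 and 967 in DMSO cells at 24 h. Its part in the result was not tested.

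GDF15, a secreted stress cytokine, differed by -1.53 (SE 0.38, adjusted p = 0.015), but its probe was above background on 1 of 4 PP242 arrays at 48 h, 4 of 4 DMSO arrays at 48 h, 1 of 4 PP242 arrays at 24 h and 0 of 3 DMSO arrays at 24 h. The value therefore rests on levels mostly not above background outside DMSO cells at 48 h, and the call was lost without DMSO 24 h array 2 (adjusted p = 0.0531), without background correction (adjusted p = 0.0902) and in the authors' value table (adjusted p = 0.0928). PMAIP1, or NOXA, a BH3-only death factor, differed by 1.10 (SE 0.29, adjusted p = 0.0255) and passed in 16 of 26 alternatives. Its call was lost without PP242 48 h array 2 or 4, DMSO 48 h array 3, PP242 24 h array 1, 3 or 4 or DMSO 24 h array 1 or 2, without number 4 in every group and with the 15 arrays fitted alone, with an adjusted p of up to 0.0908. These were the 2 calls among 14 tested p53 and apoptosis genes, against a background of 2.68% positive and 2.38% negative. Against the same background, of 26 immediate early and ERK feedback genes ATF3 was positive and SPRY2, a feedback inhibitor of ERK signalling, negative at -0.72 (SE 0.19, adjusted p = 0.0235). Under the block 4 of the 26 were positive and 2 negative, against 725 and 779 of all 12631 genes. SPRY2 lost its call without PP242 48 h array 3, DMSO 48 h array 1, PP242 24 h array 4 or DMSO 24 h array 1 or 3, and with arrays scaled by their median alone (adjusted p = 0.235).

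Of 27 tested lysosome and autophagy genes, 3 were positive (background 2.68%) and 2 negative (background 2.38%). The positive ones were GLA, the lysosomal alpha-galactosidase, at 1.11, the autophagy receptor SQSTM1 at 0.70 and ATP6V0D1, a subunit of the proton pump, at 0.60. NPC2, which carries cholesterol in lysosomes, was negative at -0.85 (SE 0.20, adjusted p = 0.013, and 0.0753 with arrays scaled by their median alone), and ATG14, a subunit of the autophagy lipid kinase, at -0.84 (SE 0.22, adjusted p = 0.02). ATG14 lost its call without PP242 48 h array 2, DMSO 48 h array 3, PP242 24 h array 3 or DMSO 24 h array 1 or 2, with an adjusted p of up to 0.067. Of 24 sympathoadrenal and neuronal genes, SLC18A1, a vesicular monoamine transporter, was the single call (background 2.38% negative) at -0.77 (SE 0.19, adjusted p = 0.0179), lost without DMSO 24 h array 1 or 2 and with median scaling alone (adjusted p of up to 0.0636). The block gave 2 positive and 2 negative of the 24, against 725 and 779 of all 12631 genes.

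Several lists had no call. None of 20 glycolysis genes passed, with a median of -0.10 and 1 positive and 1 negative gene under the block. HK2, the hexokinase of the first step, had -0.62 (adjusted p = 0.207), with a second probe at -0.15, and the effect was -1.09 at 48 h and -0.47 at 24 h. None of 21 tested genes of oxidative phosphorylation passed, with or without the block, around a median of 0.12. None of 23 MYC target and ribosome biogenesis genes passed (3 positive with the block, median 0.22). NOP16, a nucleolar protein among them, had 0.63 (adjusted p = 0.0739, and 0.0165 with the block). None of 21 cytosolic ribosomal proteins passed (1 with the block, median 0.04), RPL6 having 0.85 (adjusted p = 0.123, and 0.00898 with the block).

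None of 33 mTOR complex and regulator genes passed, with a median of -0.01 and 2 positive under the block. Among them EIF4EBP2, a translation repressor that mTORC1 phosphorylates, had 0.54 (adjusted p = 0.124, and 0.00874 with the block). None of 6 metallothioneins, which bind zinc and copper, passed, although all 6 estimates were negative with a median of -0.85, and 1 was negative with the block. Between 24 h and 48 h their signal rose in PP242 cells for 2 of the 6 (background 0.823%, median change 1.11) and in DMSO cells for 5 (background 2.32%, median change 1.91). MT1F had -1.17 (SE 0.40, adjusted p = 0.0924, and 0.0498 with the block). UQCRB, a subunit of complex III, had 0.70 (adjusted p = 0.354), and its other probes gave 0.06 and -0.15.

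**Figure D4:**
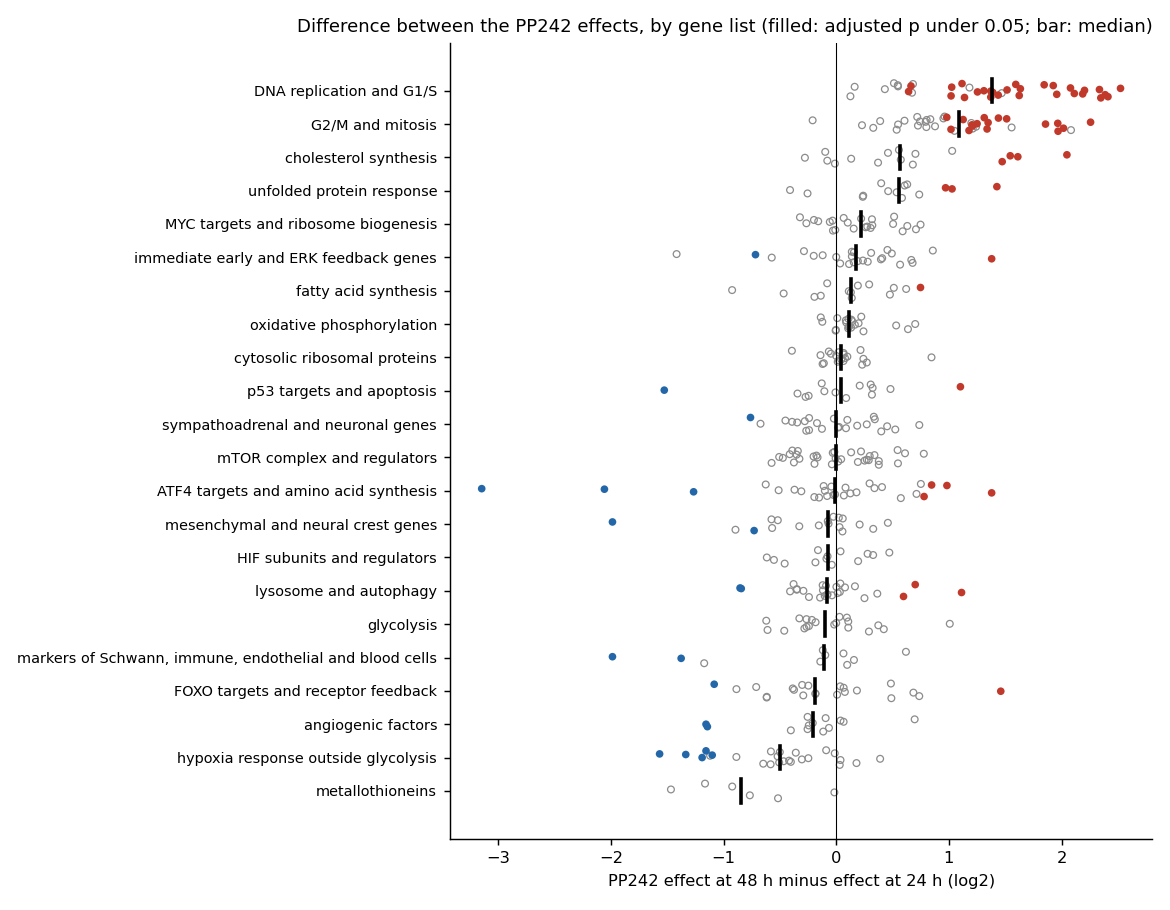
The difference between the PP242 effects (48 h minus 24 h, log2) is plotted for each tested member of the 22 gene lists, with filled points past an adjusted p of 0.05 and a bar at the list's median. The replication list has its median at 1.38 and the mitosis list at 1.09, and the metallothioneins (-0.85) and the hypoxia response (-0.50) have the lowest medians.

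The 72 h arrays give the next time point of the effect, in cells that are not the same samples. Their values are not part of the difference, but they shared its normalization, probe filter, probe choice and estimate of spread. For the replication list the median effect was -1.56 at 24 h, -0.25 at 48 h and 0.63 at 72 h, and 16 of the 38 were higher in PP242 cells at 72 h (background 3.42%). FEN1 had effects of -2.60, -0.08 and 1.29 at 24, 48 and 72 h, and its 72 h effect passed (adjusted p = 0.00219). For the mitosis list the medians were -1.98, -0.87 and 0.24 at 24, 48 and 72 h, and 1 of the 40 was higher at 72 h. For the hypoxia list they were -0.48, -0.94 and -0.82, with 16 of 25 lower at 72 h (background 5.47%). DDIT3 had effects of 1.12, -2.02 and -2.69 at these times, and ZNF467 of 1.22, -0.97 and -2.75. The median effect at 72 h was 0.39 over the 339 genes with a positive difference and -0.43 over the 301 with a negative one.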

How the data were processed

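Total RNA was labelled for Illumina bead arrays, and the authors deposited a table of non-normalized probe intensities, 48107 probes by 27 arrays, with a value table of 27367 probes (median intensity 109.561) used as an alternative. Scanner software and background handling are not given in the sources used here, and the deposited table as used here carries no detection p-values. With limma 3.58.1 in R 4.3.3, intensities were background-corrected (normexp, offset 16), taken to log2 and quantile-normalized. A probe counted as above background at p under 0.05 against each array's mode of dim probes, and the 31212 probes above it on at least 3 arrays were kept. Symbols came from the platform annotation (23495 value-table probes with 1 symbol, 1 with several, 3871 with none; 23471 matched the reference), and 14802 kept probes were left unnamed. Each of 12631 genes is read from its brightest kept probe. One model over all 7 groups of the series gave the difference of the effects and its parts, with Benjamini-Hochberg adjustment over all genes at 0.05. The model was tested on simulated data over the same 12631 genes. It recovered 56% of 100 differences of log2 size 1 and 96% of 100 of size 2, with 10 false calls. Whether these shares hold for arrays that are paired by sample number was not tested.

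The labels number the samples 1 to 4 in each group. Among the 15 arrays, the 21 pairs of same-numbered samples from different groups had deviations from their group means that correlated at 0.173 to 0.573. In 20 of the 21 this was above the highest correlation with another number of the second group. The exception was number 3 of PP242 and DMSO cells at 48 h (0.208 against 0.211). The numbers therefore pair the samples, although the labels do not say what a number marks.

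Named genes were 6 set ones (VEGFA, EPAS1, HIF1A, MYCN, MTOR and DDIT4), the 10 most positive and 10 most negative called differences, and from each of 22 lists the 2 called members with the smallest p, or 1 member where none passed. List members given beyond these 55 genes were picked to describe their list after its values were seen. The members and lists were chosen with earlier results of these data known. Alternatives covered background correction, normalization, filters, probe choice, arrays fitted, the block and each array left out. Promoters came from RefSeq (GRCh38.p14), where 48 of the 55 named genes were matched.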

Additional observations from a re-analysis of the deposited data

Results flagged for a closer look

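The PP242 effect differed between 48 h and 24 h for 640 genes (5.07% of those tested) by the test of the difference itself. The naming rule took called genes first, a choice that favours calls, and 43 of the 55 named genes were among the 640. In DNA replication and cell division these were FEN1 (2.52), UHRF1 (2.41), E2F2 (2.39), MCM10 (2.35), PCNA (2.34), UBE2T (2.29), MELK (2.26), CDC25A (2.20), RRM2 (2.19), TK1 (2.11), CENPA (2.02), BIRC5 (1.97) and CHAF1A (1.62), as log2 differences. In lipid synthesis and protein folding they were HMGCS1 (1.61), MSMO1 (1.47), SDF2L1 (1.43), DNAJB11 (0.97) and FASN (0.75). The other positive ones were TXNIP (1.46), ATF3 (1.38) and PMAIP1 (1.10).

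The negative differences among stress genes were DDIT3 (-3.15), ATF5 (-2.06), CREBRF (-1.93) and GDF15 (-1.53). Among hypoxia and vessel genes they were PLOD1 (-1.57), KDM3A (-1.19), VEGFA (-1.16) and EFNA1 (-1.14). Among neuronal, mesenchymal and secreted factors they were KCNIP4 (-2.22), ACTA2 (-1.99), NRG3 (-1.73), PDGFRB (-1.38), IGFBP5 (-1.08), SLC18A1 (-0.77) and TWIST1 (-0.73). The others were ZNF467 (-2.19), H1-2 (-2.12), HNRNPDL (-1.78), EPB41L4A-AS1 (-1.70), NPC2 (-0.85), ATG14 (-0.84) and SPRY2 (-0.72).

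In 10 of 165 groups of 4 arrays, 1 array stood far from the others, and chance alone marks about 1 in 20 groups. The gap is given as a share of the group's range. PP242 24 h array 2 was high for E2F2 (0.837) and PMAIP1 (0.888), and PP242 24 h array 4 was low for FASN (0.946) and high for HIF1A (0.897). DMSO 48 h array 4 was low for H1-2 (0.972) and VEGFA (0.835), and DMSO 48 h array 3 was low for MYCN (0.893). In PP242 cells at 48 h, array 2 was high for MSMO1 (0.898), array 1 low for IGFBP5 (0.853) and array 4 high for PDGFRB (0.917).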

How the results depend on the processing

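Over the 26 alternatives, no named gene changed direction, and 30 of the 43 called genes kept their call under all of them. With the sample number as a block, 725 genes were positive and 779 negative, 1504 in all, 2506 genes differed between PP242 and DMSO at 48 h, 578 changed with time in PP242 cells and 1279 in DMSO cells, and the mitosis and hypoxia lists had 27 and 9 calls. The block ended no call among the 43 and added CREBBP, NOP16, RPL6, MT1F and EIF4EBP2. With arrays scaled by their median alone, 165 genes were negative, 57 changed in PP242 cells and 3 hypoxia genes passed. With the 15 arrays fitted alone, 87 changed in PP242 cells and 3 hypoxia genes passed. Without sample number 4 in every group, 40 changed in PP242 cells and 920 in DMSO cells. Leaving out 1 array at a time gave 177 to 404 positive and 163 to 366 negative genes, 340 to 770 in all, 902 to 1373 genes for PP242 against DMSO at 48 h and 1887 to 2858 at 24 h, 23 to 296 for the change in PP242 cells and 134 to 625 in DMSO cells, with 24 to 30 replication, 12 to 28 mitosis and 3 to 7 hypoxia genes. For the difference in all, median scaling gave 459 genes, the 15 arrays alone 559, leaving out number 4 gave 790, and the other alternatives 552 to 758. The cause of these shifts was not tested. Dim probes such as GDF15 are limited by background: without background correction its difference was -0.67 and with the authors' value table -0.67.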

Other observations

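The gene families below were picked after their values were seen, so their counts are descriptions. Of 16 tested tubulin genes, which build microtubules, 8 had a positive difference between the PP242 effects and TUBG2 a negative one, with a median of 0.72, and over all genes 2.68% were positive and 2.38% negative with a median of -0.01. Some tubulin genes are close to each other in sequence, and their probes may share signal, which was not tested. TUBB4B differed by 2.02 (adjusted p = 7.31e-05 in limma) with effects of -0.10 at 48 h and -2.12 at 24 h. TUBB2A differed by 1.95 (adjusted p = 2.09e-05) in another way. The 48 h TUBB2A values were 9.78, 9.92, 9.60 and 9.72 in PP242 cells, against 7.58, 8.46, 7.81 and 8.44 in DMSO cells. The 24 h TUBB2A values were 8.69, 8.75, 8.77 and 9.12 in PP242 cells, against 8.95, 9.32 and 9.03 in DMSO cells. PP242 cells were above DMSO cells at 48 h and overlapped them at 24 h, and the effect was 1.68 at 48 h and -0.27 at 24 h.

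Of 55 tested heat shock and DNAJ chaperone genes, 6 were positive (background 2.68%) and none negative, and with samples blocked by number 7 were positive and 2 negative. The cytosolic ones were HSPH1 (1.39), DNAJB1 (1.36), DNAJA1 (1.18), HSPA14 (1.02) and HSP90AA1 (0.92), and DNAJB11 (0.97) belongs to the endoplasmic reticulum. Of 222 small nucleolar and Cajal body RNAs and their host genes, which guide RNA modification, 10 were negative (background 2.38%) and SNORA63 was positive (background 2.68%), with a median of -0.09. With samples blocked by number 21 were negative and 4 positive, where 779 of all 12631 genes were negative and 725 positive. SCARNA23 differed by -1.51 (adjusted p = 0.0135) and SNHG7 by -1.21 (adjusted p = 0.0395).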
